A study of Mus musculus with 60 samples.

Results

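The Clostridia vadinBB60 group, Clostridia UCG-014 and Christensenellales are 3 orders of the class Clostridia, named vadinBB60, UCG-014 and Christensenellales from here on. The members were all sequence features whose deposited lineage carried 1 of these 3 order names, with no use of their abundance. They number 606 of the 8574 features in the deposited table, and 7.65% of the 7922 features placed among bacteria or archaea. vadinBB60 holds 320 of them, UCG-014 holds 188 and Christensenellales holds 98. No vadinBB60 or UCG-014 feature carries a family or genus name other than that of its order. All 320 vadinBB60 features and 183 of the 188 UCG-014 features have no species name. Within Christensenellales, 79 features carry the label Christensenellaceae_R-7_group, 16 are unclassified Christensenellaceae, 2 are Christensenella and 1 is Catabacter. The classifier confidence of a member, a fraction given by the authors, was 0.995 at the median and 0.706 at the lowest.

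The study asked how swallowed nanoplastic relates to the bacteria of gut and lung in mice. Exposed mice (PET) were males given nanoparticles of polyethylene terephthalate, the polyester of bottles and fabrics, by gavage, with a daily dose of 0.5 mg in 0.1 ml over 28 days. Control mice were males that received no nanoplastic, and neither what else they were given nor the strain or age of the mice is stated in the sources used here. PET and control libraries, 6 each, came from lung, colon, oral swab and stool at day 28 and from stool after 1 week, which gives 60 libraries of a bacterial 16S rRNA gene amplicon (regions V3 and V4). The submitters describe 12 mice with 6 in each arm. Which libraries share a mouse is not stated in the sources used here, so libraries were not paired and p-values measure the spread between libraries. Lung and colon DNA came from a tissue kit and oral swab and stool DNA from a soil kit, so kit and site cannot be told apart in any comparison across the 2 kits.

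All 3 orders are known mainly from animal guts and other oxygen-poor places, and most of their lineages are known only from sequences. vadinBB60 takes its name from a clone recovered from an anaerobic digester fed with winery waste, and is common in rodent stool. UCG stands for an uncultured genus-level group. Christensenellales includes Christensenella, a cultured genus that in humans has been linked to leanness and is among the more heritable gut bacteria, and the R-7 group, which is known from ruminants and many other mammals.

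Libraries held 10543 to 326834 counts in lung, 59063 to 280575 in colon, 119454 to 428830 in oral swabs and 16521 to 1083575 in stool. The site labels were set against marker taxa. Helicobacter, which lives in gut mucus, averaged 65.04% of colon counts, and 4 genera of the mouse mouth (Muribacter, Streptococcus, Rodentibacter and Gemella) made up 84.1% of oral swab counts. Families of common gut anaerobes made up 58.2% of stool, 36.8% of lung, 20.3% of colon and 6.20% of oral swab counts, so that colon was below lung. In lung they made up 26.5% ± 11.1 of PET and 47.2% ± 22.4 of control counts (SD, n = 6 each). Genera often found in reagents made up 13.1% ± 8.54 of PET lung and 7.12% ± 9.01 of control lung counts (SD, n = 6 each). Over the 24 stool libraries their mean was 0.0890% and their median 0.0119%. These values stand beside every lung result below, and their part in those results was not tested.

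vadinBB60 was the most abundant of the 3 orders in stool, ranking 3 of 59 order labels by mean share. It made up 7.48% ± 2.45 of prokaryote counts over the 24 stool libraries (SD), with 3.78% at the lowest and 11.8% at the highest. At day 28 its share was lowest at 3.95%, 5.57% at the median and highest at 10.3% in PET stool, against 3.78%, 7.69% and 10.8% in control stool. After 1 week the lowest, median and highest shares were 5.72%, 9.69% and 10.2% in PET stool, against 5.33%, 7.73% and 11.8% in control stool. The 2 arms overlapped at both times. A share is relative to the rest of the library, so that fewer cells of an order, less DNA per cell and more of the other bacteria cannot be told apart.

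The order was spread over many features rather than led by 1. Of its 320 features 292 were found in stool, but 204 of the 320 (63.7%) were found in a single library of the 60. Of prokaryote features outside the 3 orders, 75.0% were found in a single library. Features are numbered here by their mean stool share within each order. Feature 1 was the sole vadinBB60 feature present in all 24 stool libraries, and it was the most abundant one in 10 of them. vadinBB60 feature 1 held 1.23% ± 1.10 in PET and 0.830% ± 0.564 in control stool at day 28, and 2.195% ± 1.56 in PET and 0.310% ± 0.162 in control stool at week 1 (SD, n = 6 each). At week 1 it ran from 0.118% to 3.62% in PET stool and from 0.0951% to 0.481% in control stool, so that the arms overlapped. vadinBB60 feature 3 went the other way at week 1, with 0.126% ± 0.174 in PET, where 3 of 6 libraries had it, and 1.23% ± 1.155 in control, where 4 of 6 did. vadinBB60 feature 4 reached 3.29% in 1 PET week 1 library and was at 0 in 4 others of that group. The leading feature of a library held 31.9% ± 10.7 of the order's counts in PET stool and 21.4% ± 5.90 in control stool at week 1, and 23.3% ± 5.21 in PET and 27.4% ± 9.71 in control stool at day 28.

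UCG-014 was the second of the 3 orders in stool, with 1.72% ± 1.37 over the 24 stool libraries (SD), rank 7 of 59 orders. Its lowest, median and highest shares at day 28 were 0.210%, 1.06% and 4.64% in PET stool, against 1.22%, 2.21% and 5.54% in control stool. After 1 week they were 0.272%, 1.41% and 2.095% in PET stool, against 0.459%, 0.892% and 1.76% in control stool. Libraries of 1 group thus differed by more than an order of magnitude, and the arms overlapped at both times. UCG-014 feature 1 led the order in 15 of 24 stool libraries and was present in 23 of them. It held 0.911% ± 1.15 in PET and 0.553% ± 0.432 in control stool at day 28 (SD, n = 6 each). UCG-014 feature 3 was found in no PET library of any site and in 5 control stool libraries, where it reached 1.41%. Its difference between arms in day 28 stool did not pass the edgeR test described below (adjusted p = 0.33). UCG-014 feature 4 had 0 counts in PET stool at day 28 and reached 1.46% in 1 of the 2 control libraries that held it.

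Christensenellales was a trace order in stool, rank 32 of 59 orders, with 0.00359% ± 0.00592 over 24 libraries (SD). It was detected in 21 of the 24 stool libraries and by 11 features in all. Only 2 of its 4 labels were found there. The R-7 group was detected in 0 of 6 PET and 1 of 6 control stool libraries at day 28, and in 5 of 6 PET and 3 of 6 control libraries at week 1. Unclassified Christensenellaceae showed the opposite distribution, with 6 of 6 PET and 5 of 6 control libraries at day 28 and 1 of 6 PET and 2 of 6 control libraries at week 1. The levels were a few counts in most libraries. The 24 stool libraries held 441 R-7 counts, of which 308 lay in PET week 1 library 6, the deepest of the series with 1083575 counts. Genera often found in reagents made up 0.721% of that library, against a median of 0.0211% in its group. Christensenella and Catabacter had 0 counts in stool, which allows up to 0.000028% over the pooled stool libraries.

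**Figure D1:**
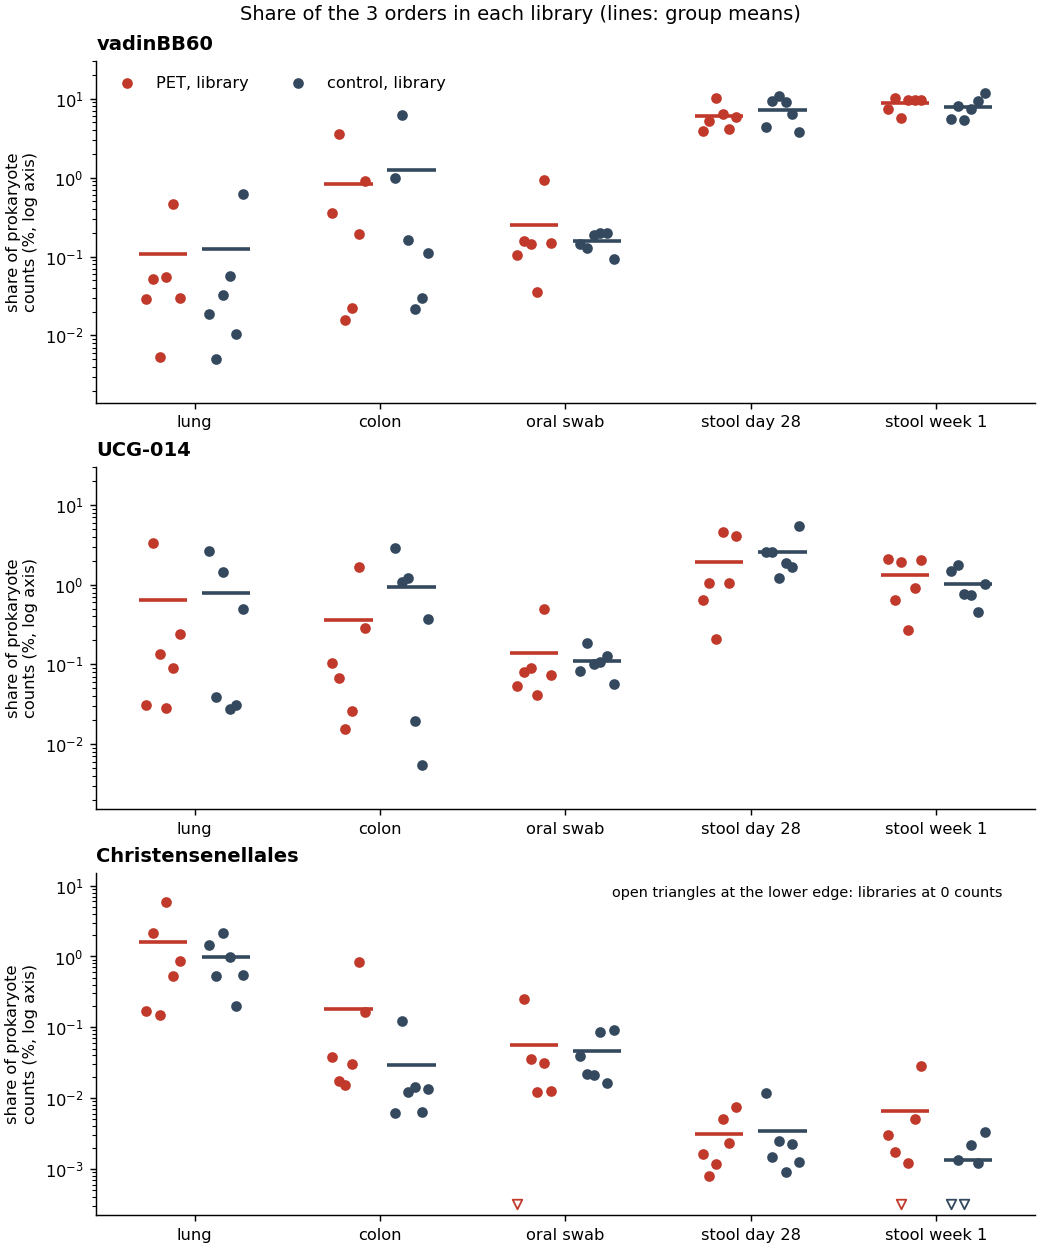
Share of each order in every library (points, percent of prokaryote counts, log axis) for PET (red) and control (blue) at each site and time, 6 libraries a group, with lines at the group means. vadinBB60 and UCG-014 were highest in stool and Christensenellales in lung, and the 2 arms overlapped at every site and time.

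**Figure D2:**
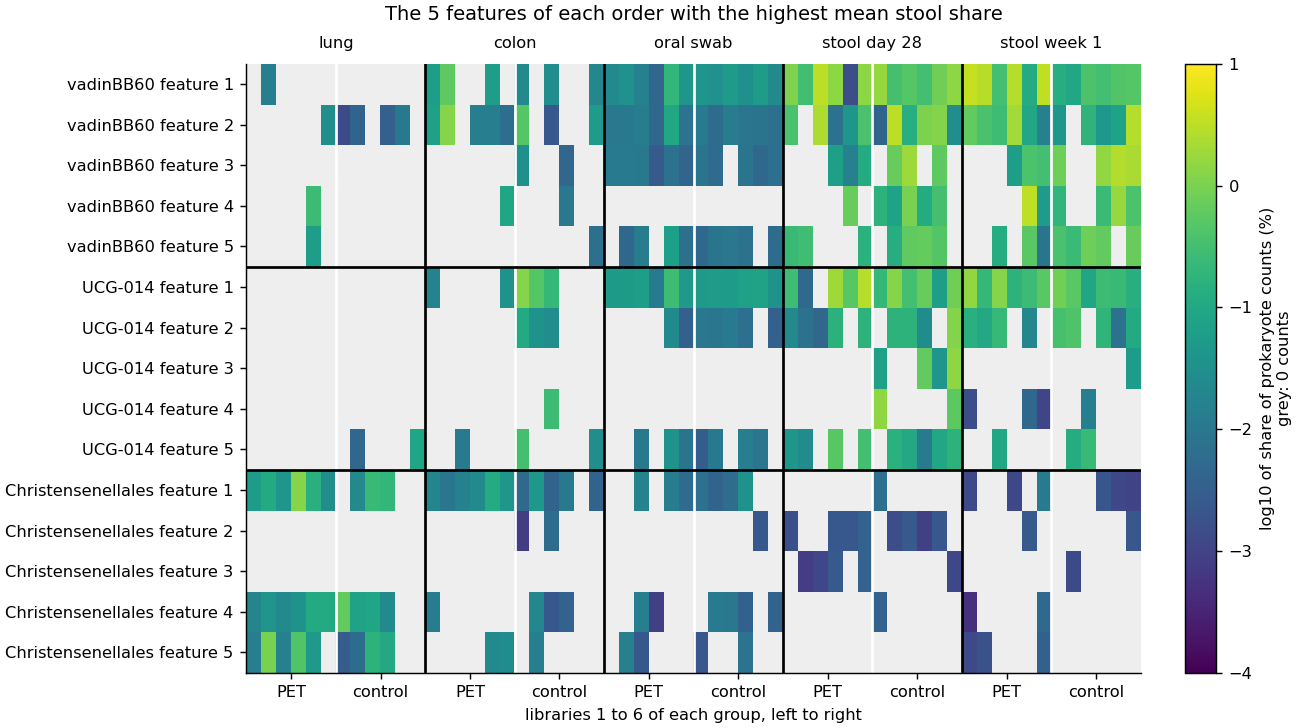
log10 of the share of prokaryote counts (colour, in percent) of the 5 features of each order with the highest mean stool share, in rows, over all 60 libraries, in columns. Grey cells are 0 counts. UCG-014 features 1 to 4 were at 0 in all 12 lung libraries, while Christensenellales features 1, 4 and 5 were more abundant in lung than in stool.

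The clearest differences lay between sites at day 28. Christensenellales was higher in lung, colon and oral swabs than in stool. vadinBB60 was lower at all 3 of those sites than in stool, and UCG-014 was lower in lung and oral swabs. The vadinBB60 call in colon and the UCG-014 call in oral swabs were lost when the same counts were fitted among genus labels. Sites were compared over 12 libraries each with the quasi-likelihood F test of edgeR on counts summed by order, with arm as a covariate, TMM scaling and Benjamini-Hochberg adjustment over all orders tested, at a threshold of 0.05. Such calls were common, since 86.6% of the 67 orders tested passed in lung against stool, 64.6% of 48 in colon against stool, 84.5% of 58 in oral swab against stool and 50.0% of 66 in lung against colon. Higher calls made up 65.7%, 52.1%, 60.3% and 39.4% of the orders tested in the same 4 comparisons, and lower calls 20.9%, 12.5%, 24.1% and 10.6%.

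Christensenellales ran from 0.151% to 5.83% in lung with a median of 0.701%, against 0.000797% to 0.0120% in day 28 stool with a median of 0.00194%. All 12 lung libraries lay above all 12 stool libraries, which held for 6 of the 67 orders tested (8.96%). The fitted log2 difference was 7.21 ± 1.01 (SE, adjusted p = 1.1e-07) with TMM scaling and 8.58 ± 0.979 with scaling to library totals. The median of all orders stood at 6.27 and 7.89 under the same scalings, so that the difference of Christensenellales was near that of the median order. By mean share it ranked 15 among the order labels of lung.

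Colon and oral swabs held Christensenellales at levels between those of lung and stool. Its median share was 0.0164% in colon and 0.0264% in oral swabs, against 0.00194% in day 28 stool. The log2 difference from stool was 6.16 ± 0.864 in colon (adjusted p = 4.2e-06) and 6.12 ± 0.819 in oral swabs (adjusted p = 3.69e-07), against medians over all orders of 3.15 and 5.37. With library totals the values were 4.48 ± 1.04 and 3.97 ± 0.964, against medians of 1.29 and 2.90. Lung exceeded colon by 2.38 ± 0.801 (adjusted p = 0.0156), against a median over all orders of 2.23. That last call was lost within PET libraries (2.73, adjusted p = 0.167) and within control libraries (2.07, adjusted p = 0.138).

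The R-7 group held most of the Christensenellales counts at the other sites. The R-7 group was detected in 12 of 12 lung, 12 of 12 colon and 11 of 12 oral swab libraries, against 1 of 12 day 28 stool libraries, which held 72 counts. It held 1.26% ± 1.60 of lung counts (SD, n = 12), with 0.113% at the lowest and 5.815% at the highest library. edgeR gave log2 differences from stool of 10.4 ± 1.94 in lung (adjusted p = 7.08e-06), 7.94 ± 2.61 in colon (adjusted p = 0.0122) and 10.2 ± 1.63 in oral swabs (adjusted p = 7.29e-06). Of all genus labels, 83.3%, 32.4% and 70.5% passed in these comparisons, and 40.8% in lung against colon, where the R-7 group differed by 2.35 ± 0.991 (adjusted p = 0.0483). Lower calls were made for 4.05% of genus labels in colon against stool and for 8.61% in lung against colon. Within control libraries alone the colon call was lost (adjusted p = 0.141), and the lung against colon call was lost within either arm. Unclassified Christensenellaceae passed the threshold in none of the 4 comparisons by edgeR. Christensenella was found in 2 lung libraries and 1 oral swab library, and Catabacter in 1 lung library.

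vadinBB60 went the other way. Its share was 0.00499% to 0.622% in lung with a median of 0.0314%, against 3.78% to 10.8% in day 28 stool with a median of 6.17%. Every lung and every oral swab library lay below every stool library, as was the case for 2 of 67 orders (2.99%) in lung and 8 of 58 (13.8%) in oral swabs. In oral swabs it ran from 0.0354% to 0.933%, with a median of 0.146%. The log2 difference from stool was -8.04 ± 0.790 in lung (adjusted p = 1.3e-10), -1.87 ± 0.616 in colon (adjusted p = 0.0101) and -2.67 ± 0.364 in oral swabs (adjusted p = 4.75e-07). With library totals these values were -5.85 ± 0.79, -2.69 ± 0.80 and -5.04 ± 0.514. Within PET libraries alone the calls for colon (-0.78, adjusted p = 0.516) and oral swabs (-1.22, adjusted p = 0.0865) were lost. Lung was also below colon, with a log2 difference of -5.28 ± 0.972 (adjusted p = 5.52e-05). The same counts were also fitted by edgeR among genus labels, with TMM scaling. There the differences from stool were -7.15 ± 0.868 in lung, -1.12 ± 0.774 in colon and -1.52 ± 0.350 in oral swabs. Colon did not pass there (adjusted p = 0.274).

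Colon libraries differed widely in vadinBB60. The share ran from 0.0155% to 6.17%, with a median of 0.178%. It ran against the share of Helicobacter, with a Spearman correlation of -0.916 over the 12 colon libraries, and the 2 shares are parts of the same total. In control colon library 2, where vadinBB60 held 6.17% (95% Wilson interval 6.06% to 6.28%), 98.6% of its counts came from vadinBB60 feature 28, a feature chosen after its values were seen. Without that library the control colon mean was 0.263% ± 0.4105, against 1.25% ± 2.44 with it.

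UCG-014 was at 0.0279% to 3.38% in lung with a median of 0.113%, and at 0.00548% to 2.88% in colon with a median of 0.195%, against 0.210% to 5.54% in day 28 stool. Its ranges overlapped with stool at both sites. edgeR placed it lower than in stool, with log2 differences of -3.27 ± 0.779 in lung (adjusted p = 0.000328) and -1.78 ± 0.467 in oral swabs (adjusted p = 0.00112), while colon did not pass (-1.20 ± 0.564, adjusted p = 0.0587). With library totals the lung call was lost (-1.65 ± 0.806, adjusted p = 0.0551) and colon passed (-1.95 ± 0.806, adjusted p = 0.0339), as it did by DESeq2 (-2.10, adjusted p = 0.00683) and without Helicobacter counts (-1.895, adjusted p = 0.0484). Within PET libraries alone the lung (-2.27, adjusted p = 0.0663) and oral swab calls (-0.14, adjusted p = 0.877) were lost. Lung against colon gave -1.91 ± 0.929 (adjusted p = 0.0793), and 0.29 ± 0.981 with library totals, so that the sign depended on the scaling. It passed with TMMwsp scaling in edgeR (-2.57, adjusted p = 0.0307) and by DESeq2 (-2.10, adjusted p = 0.0252). Fitted by edgeR among genus labels with TMM scaling, the same UCG-014 counts were lower in lung than in stool (-2.62 ± 0.870, adjusted p = 0.00536). In that fit oral swabs did not pass against stool (-0.52 ± 0.436, adjusted p = 0.285), nor did colon (-0.55 ± 0.757, adjusted p = 0.62).

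**Figure D3:**
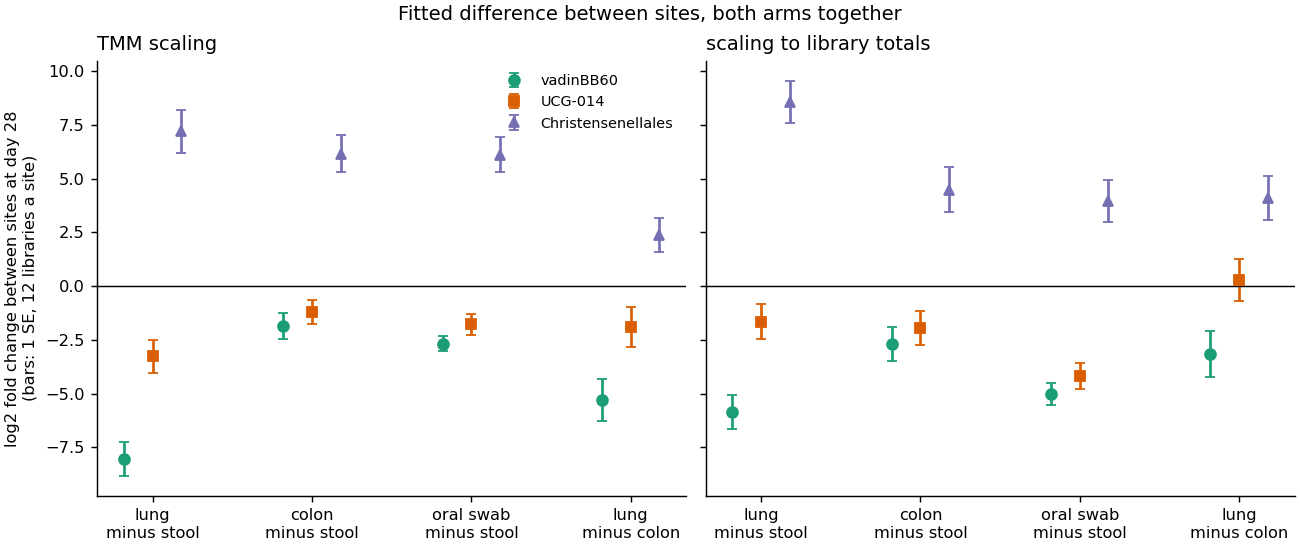
log2 fold change of each order between sites at day 28 (12 libraries a site, bars are 1 SE), with TMM scaling on the left and scaling to library totals on the right. Christensenellales lay above 0 in all 4 comparisons and vadinBB60 below 0, while UCG-014 in lung against colon changed sign with the scaling.

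The features that made up each order also differed between sites. In colon, 76 of 84 vadinBB60 features were also found in stool, and these held 99.6% of the order's colon counts. In oral swabs 44 of 53 were, with 97.9% of counts. In lung 14 of 25 were, with 70.3% of counts. The lung values rest on 427 vadinBB60 counts over 12 libraries. Of all other prokaryote features in colon, 55.4% were also found in stool, with 98.8% of their counts, so the colon count share of vadinBB60 was near theirs. In oral swabs the values for other prokaryote features were 37.7% of features and 79.0% of counts.

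In lung, 5 of the 34 UCG-014 features were also found in any of the 24 stool libraries. Over the 12 lung libraries these held 8.30% of UCG-014 counts, a value that rests on 2 libraries. Control lung library 1 held 8591 of the 10314 counts, 83.3%, with 0.0% of its own in features found in stool, and without it the value was 49.7%. Without PET lung library 2 it was 0.729%. Features found in lung alone numbered 22 and held 79.5% of UCG-014 lung counts, or 15 and 33.1% without control lung library 1. Those 22 were 64.7% of the UCG-014 lung features, against 75.9% of lung features outside the 3 orders. With any 1 lung library left out, the count share in features also found in stool was 62.0% to 77.7% for vadinBB60. For Christensenellales it was 58.7% to 63.1%. For prokaryote features outside the 3 orders, 485 of 3471 lung features were found in stool, with 64.1% of counts. UCG-014 feature 1, which led the order in stool, had 0 counts in lung and was present in 12 of 12 oral swab libraries. In PET lung library 2, UCG-014 held 3.38% (95% Wilson interval 3.18% to 3.59%), and 80.2% of that was a single feature. In control lung library 1 it held 2.67%, led by UCG-014 feature 154 with 45.7% of the order. That feature was named after its values were seen. Over the 12 lung libraries 11 different features led, and feature 154 was the one that led in 2 libraries.

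Christensenellales had the most features of the 3 orders in lung and the fewest in stool. Lung held 77 of its 98 features and stool 11, of which 8 were shared. Those 8 were 10.4% of the lung features and 72.7% of the stool features, and they held 61.9% of the order's lung counts and 74.6% of its stool counts. A further 51 features, 66.2% of those in lung, were found in lung alone, with 19.3% of the order's lung counts. For prokaryote features outside the 3 orders the lung-only part was larger, at 75.9% of lung features, and it also held a larger share of counts. Christensenellales feature 1, an R-7 feature, was found in 9 lung, 11 colon and 7 oral swab libraries of 12 each and in 7 of 24 stool libraries. It held 0.173% of lung counts and 0.00102% of stool counts on average. Christensenellales feature 4 was found in 6 of 6 PET and 4 of 6 control lung libraries, and Christensenellales feature 5 in 5 of 6 PET and 4 of 6 control lung libraries. Christensenellales feature 2 and Christensenellales feature 3, the 2 unclassified Christensenellaceae features with the highest stool share, had 0 counts in lung.

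**Figure D4:**
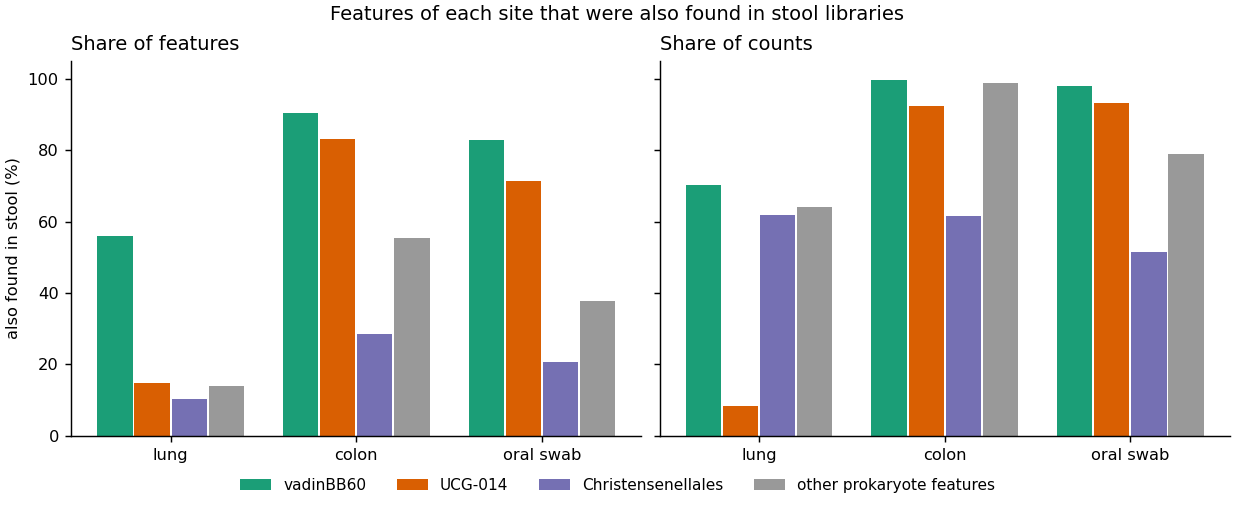
Percent of the features of each site (left) and of the counts they hold (right) that were also found in at least 1 of the 24 stool libraries, for the 3 orders and for all other prokaryote features. In lung the count share was 8.30% for UCG-014, 70.3% for vadinBB60, 61.9% for Christensenellales and 64.1% for other features, and the UCG-014 value was 49.7% without control lung library 1.

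Exposure was compared at each site and time between 6 PET and 6 control libraries. Of the 3 orders, 0 passed in each comparison by edgeR, with 0 at an unadjusted edgeR p under 0.05. By DESeq2 0 passed, while 2 of the 3 had an unadjusted p under 0.05 in colon, against 8 of all 40 orders tested there. Over all orders edgeR called 0.0% in lung, 12.5% in colon and 0.0% in oral swab, day 28 stool and week 1 stool. In no comparison were all PET libraries above or all below all control libraries for any of the 3 orders, against 1 of 63 orders (1.59%) in lung and 0.0% in the other comparisons.

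In lung, Christensenellales held 0.151%, 0.694% and 5.83% at the lowest, median and highest in PET libraries, against 0.202%, 0.757% and 2.13% in control libraries. Means were 1.61% ± 2.19 in PET and 0.969% ± 0.714 in control (SD, n = 6 each), and the log2 difference was 0.13 ± 0.948 (SE, adjusted p = 0.997). Without PET library 4, at 5.83%, the PET mean was 0.769% ± 0.817 and the log2 difference -1.41. UCG-014 averaged 0.650% ± 1.34 in PET lung, 0.105% ± 0.0867 without library 2, and 0.783% ± 1.07 in control lung. Its log2 difference was -1.61 ± 1.31 (adjusted p = 0.729). vadinBB60 averaged 0.107% ± 0.179 in PET and 0.125% ± 0.245 in control lung, with a log2 difference of -0.57 ± 1.5 (adjusted p = 0.997). The 2 means rested on 1 library each and were 0.0342% in PET and 0.0249% in control without it. Unclassified Christensenellaceae was detected in 1 of 6 PET and 5 of 6 control lung libraries, with 0.00191% ± 0.00467 in PET and 0.0515% ± 0.0434 in control, and did not pass (adjusted p = 0.55).

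In colon, UCG-014 held 0.0155%, 0.0867% and 1.69% at the lowest, median and highest in PET libraries, against 0.00548%, 0.737% and 2.88% in control libraries. The log2 difference of -1.98 ± 1.007 did not pass (unadjusted p = 0.0674, adjusted p = 0.304), and leaving out PET library 5 gave -3.87, leaving out control library 1 gave -1.24. UCG-014 feature 1 was found in 2 of 6 PET and 3 of 6 control colon libraries, with 0.00882% ± 0.0149 in PET and 0.326% ± 0.494 in control. Christensenellales averaged 0.183% ± 0.324 in PET and 0.0291% ± 0.0458 in control colon, with a log2 difference of 1.24 ± 1.10 (adjusted p = 0.553). Without the highest library of each arm the means were 0.0529% in PET and 0.01045% in control. Mouth genera were at 0.247% ± 0.107 in PET and 0.0878% ± 0.0431 in control colon, and their part in the Christensenellales values was not tested. vadinBB60 averaged 0.842% ± 1.37 in PET and 1.25% ± 2.44 in control colon (log2 -0.44 ± 1.05, adjusted p = 0.874).

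In oral swabs all 3 orders were at trace levels in both arms. vadinBB60 averaged 0.254% ± 0.336 in PET and 0.158% ± 0.0431 in control, UCG-014 0.139% ± 0.175 in PET and 0.110% ± 0.0441 in control, and Christensenellales 0.0564% ± 0.0946 in PET and 0.0461% ± 0.0344 in control. Their log2 differences were 0.20 ± 0.618, 0.04 ± 0.620 and -0.75 ± 1.03, with adjusted p-values of 0.968 or above. The wider PET spread came from 1 library for vadinBB60 and UCG-014, PET library 5, and without it their PET means were 0.118% and 0.0677%. Gut families made up 11.9% of that library and 30.7% of PET library 2, which had the highest Christensenellales share, against 4.08% ± 1.22 in control swabs. Their part in these values was not tested.

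In stool at day 28 vadinBB60 averaged 5.99% ± 2.32 in PET and 7.28% ± 2.87 in control (log2 0.10 ± 0.442, adjusted p = 0.91), and at week 1 8.73% ± 1.78 in PET and 7.90% ± 2.43 in control (log2 0.12 ± 0.212, adjusted p = 0.842). The sign of the day 28 difference depended on the scaling and was -0.28 ± 0.306 with library totals. UCG-014 averaged 1.95% ± 1.91 in PET and 2.58% ± 1.54 in control at day 28 (log2 -0.45 ± 0.568, adjusted p = 0.82), and 1.32% ± 0.808 in PET and 1.04% ± 0.492 in control at week 1 (log2 0.36 ± 0.541, adjusted p = 0.822). Christensenellales had the highest difference at week 1, with 0.00657% ± 0.0109 in PET and 0.00134% ± 0.00128 in control (log2 2.03 ± 1.21, adjusted p = 0.571). It fell to a log2 of 0.41 without PET library 6, the deepest of the series. At day 28 it averaged 0.00306% ± 0.00260 in PET and 0.00338% ± 0.00425 in control (log2 0.10 ± 0.859, adjusted p = 0.96).

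**Figure D5:**
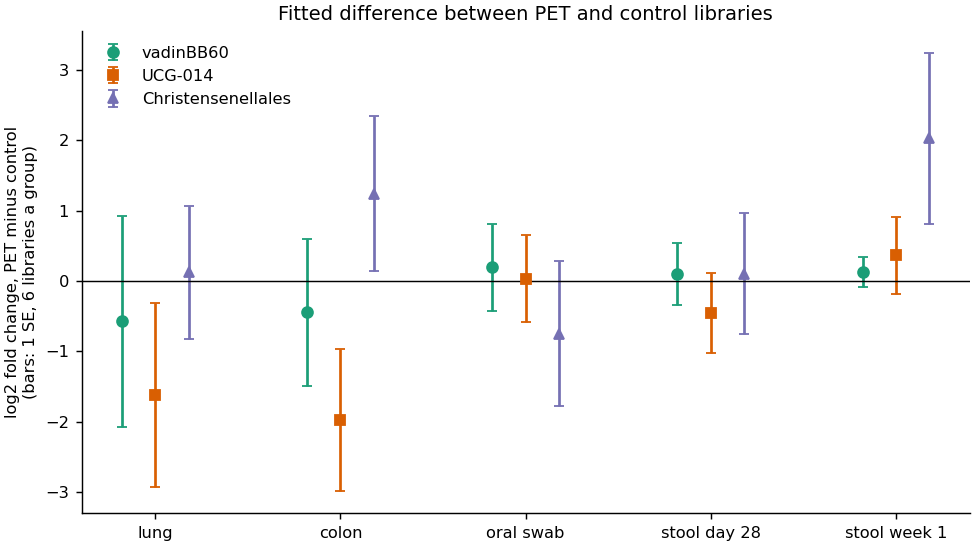
log2 fold change of each order in PET minus control libraries (6 a group, bars are 1 SE) at each site and time. No difference passed the threshold, and the SE was narrowest for vadinBB60 in stool at week 1 (0.212) and widest for vadinBB60 in lung (1.5).

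The genus labels of the 3 orders gave 0 calls by edgeR in each of the 5 exposure comparisons. With TMM scaling 0 of them had an unadjusted edgeR p under 0.05, and with TMMwsp 1 did in colon. They also gave 0 calls by DESeq2, where 1 label in colon and 1 in lung had an unadjusted p under 0.05. Of all genus labels, edgeR called 15.8% in colon and 0.0% at the other sites and times. DESeq2 called 7.19% in colon, 1.72% in lung and 0.0% at the others. At the level of single features, few members reached the filter of 10 counts in total and a count above 0 in 3 libraries. They numbered 20 of 606 in lung, 29 in colon, 34 in oral swab and 120 in day 28 stool, with a similar number in week 1 stool. By edgeR 0 of them passed in each comparison, against 2.35% of all features in colon and 0.0% elsewhere. Those with an unadjusted p under 0.05 numbered 1, 5, 1, 13 and 20 in the same order. These were 5.0%, 17.2%, 2.94%, 10.8% and 16.5% of the members tested, against 11.9%, 8.33%, 6.30%, 5.83% and 7.97% of all features tested. DESeq2 called 0, 0, 0, 9 and 3, against 0.661%, 2.35%, 1.52%, 2.85% and 1.10% of all features tested. With this filter and TMM scaling, the lowest adjusted p of a member by edgeR was 0.122, in colon.

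Directions among member features were mixed. In day 28 stool 38 of 78 vadinBB60 features tested were higher in PET and 40 lower, with a median log2 of -0.05. Of 40 UCG-014 features 19 were higher and 21 lower, with a median of -0.13. In week 1 stool 42 of 83 vadinBB60 features were higher in PET and 41 lower, and 20 of 36 UCG-014 features were higher and 16 lower. The median over all member features was -0.02 at day 28 and 0.05 at week 1, against 0.06 and 0.29 over all features tested. In colon the 15 vadinBB60 features were higher in PET in 12 cases and lower in 3, and the 8 UCG-014 features higher in 2 and lower in 6. These colon counts cover only the features that passed the filter, and 0 of them passed the test.

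Time was compared within stool in 1 fit of 24 libraries. None of the 3 orders passed between day 28 and week 1 in either arm by edgeR or by DESeq2. By edgeR with TMM scaling 0 of 3 had an unadjusted p under 0.05. With library totals 1 of 3 did in control stool, against 11 of all 45 orders. It was UCG-014, at a log2 of 1.32 ± 0.605 (adjusted p = 0.178 by edgeR). Over all orders edgeR called 0.0% in each arm, while DESeq2 called 13.3% in PET and 6.67% in control. In PET stool the log2 difference of day 28 minus week 1 was -0.39 ± 0.314 for vadinBB60 (adjusted p = 0.429), 0.67 ± 0.610 for UCG-014 and -0.86 ± 1.04 for Christensenellales. In control stool it was -0.24 ± 0.313 for vadinBB60, 1.17 ± 0.615 for UCG-014 (unadjusted p = 0.0688, adjusted p = 0.26) and 0.85 ± 1.07 for Christensenellales. The difference between the arms in these changes was -0.15 ± 0.443 for vadinBB60, -0.50 ± 0.859 for UCG-014 and -1.71 ± 1.49 for Christensenellales, with adjusted p-values of 0.581 or above.

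Of the 4 genus labels of the 3 orders, the R-7 group had the lowest p over time. In PET stool it had 0 of 2342639 counts at day 28, which allows up to 0.000128%, and 349 counts at week 1, a pooled share of 0.0109%. It was at least 85.4-fold lower at day 28 with the floor of 3 counts over the group, and at least 15.2-fold lower without week 1 library 6. The edgeR test did not pass (unadjusted p = 0.00385, adjusted p = 0.093), and neither did the difference between the arms (adjusted p = 0.0627), while DESeq2 called 1 of the 4 labels in PET stool, the R-7 group, against 8.97% of all labels. edgeR called 0.0% of all labels in each of these contrasts. In control stool the R-7 group had 72 counts at day 28, all in library 1, and 20 counts at week 1 in 3 libraries. Genera often found in reagents made up 0.721% of PET week 1 library 6, against a median of 0.0211% in its group. In control day 28 library 1 they made up 1.17%, against a group median of 0.0101%. Their part in the R-7 values was not tested.

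Among single features, edgeR called 0 of the 166 members tested for day 28 against week 1 in PET, in control and for the difference between arms, as it called 0.0% of all features. Members with an unadjusted edgeR p under 0.05 numbered 29, 31 and 34. These were 17.5%, 18.7% and 20.5% of the members tested, against 15.4%, 18.2% and 15.8% of all features. DESeq2 called 17, 14 and 27 of the 166, against 4.98%, 7.05% and 7.99% of all 964 features. The 2 tools therefore differed at this level. Day 28 stool held 157 vadinBB60 features and week 1 stool 241, and the shared ones were 67.5% of those at day 28 and 44% of those at week 1. These shared features held 97.1% of vadinBB60 counts at day 28 and 98.1% at week 1. Without the deepest library week 1 stool held 140 vadinBB60 features, of which 72.1% were shared with day 28. UCG-014 shared 69 features between the times, 58.5% of those at day 28 and 67.0% of those at week 1, and these held 95.2% of its day 28 counts and 95.5% of its week 1 counts.

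Numbers of features were compared at a common depth, as the number expected in each library when all are thinned to the smallest one compared. vadinBB60 had 49.5 ± 7.09 features in PET and 51.7 ± 8.74 in control stool at day 28, at 245010 counts (SD, n = 6 each). At week 1, at 16513 counts, it had 49.6 ± 27.2 in PET and 40.8 ± 8.745 in control stool. UCG-014 had 24.2 ± 11.8 in PET and 26.3 ± 5.41 in control stool at day 28, and 18.3 ± 9.41 in PET and 14.4 ± 6.70 in control stool at week 1. In lung, at 10083 counts, Christensenellales had 9.08 ± 5.14 in PET and 11.7 ± 5.96 in control libraries, while vadinBB60 had 2.04 ± 1.09 and UCG-014 2.31 ± 1.97 in PET lung, against 2.16 ± 1.83 and 4.35 ± 3.40 in control lung. Each difference between arms was smaller than the larger of the 2 SDs.

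Across the 24 stool libraries vadinBB60 and UCG-014 did not run together. The Spearman correlation of their shares was -0.368 in stool, against 0.615 in colon, 0.734 in oral swabs and 0.00699 in lung over 12 libraries each. Shares within a library add up to the same total and the libraries differ in depth, so these are descriptions. Of 42 genus labels outside the 3 orders with a mean stool share of at least 0.1%, Odoribacter had the stool share most like that of vadinBB60 (0.557), followed by unclassified F082 (0.361) and Lachnoclostridium (0.311), against a median of -0.0309. For UCG-014 they were Candidatus Saccharimonas (0.591), unclassified Lachnospiraceae (0.456) and Butyricicoccus (0.4), and for Christensenellales Rikenella (0.688), unclassified Ruminococcaceae (0.481) and Candidatus Saccharimonas (0.47).

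The other orders of class Clostridia gave no exposure calls either. Of 7 such orders tested in lung, day 28 stool and week 1 stool and 6 in colon and oral swab, 0 passed by edgeR, with an unadjusted p under 0.05 for 1 in lung and 1 in colon. Their median log2 in PET minus control ran from -0.33 in oral swabs to 0.34 in week 1 stool. Between sites, 1 of the 7 was higher and 2 were lower in lung than in stool, with a median of -0.11, and 2 were higher and 0 lower in colon than in stool, with a median of 0.25.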

How the data were processed

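The deposited feature table gives raw read counts per feature and library. A second deposited table names the lineage of a feature, with the classifier's confidence as a fraction. Cutadapt, Bowtie2 and the mouse build GRCm39 appear in the submitters' processing notes, while denoiser, classifier and database are not stated there. Features without a lineage or outside bacteria and archaea were left out, which kept 7922 features with 99.3% of counts. Counts were summed by order and genus. Models were fitted in edgeR 4.0.16 with the quasi-likelihood F test (TMM scaling, at least 10 counts in total and a count above 0 in 3 libraries) on all taxa of each level, with Benjamini-Hochberg adjustment at 0.05. Every adjusted p is from edgeR unless DESeq2 1.42.0 is named. On simulated data for 737 features of day 28 stool, edgeR recovered 79% of changes of log2 3 and 99% of log2 5 and called 0.745% of unchanged features. For 468 features of colon it recovered 71% and 99% and called 4.1% of unchanged features. The simulated counts varied around 1 mean per feature, with the same spread setting for all features. Features abundant in some libraries and absent from others were not modelled. The recoveries therefore do not show how many real changes among members the tests above would find. The closest libraries of 1 group differed by a chi-square of 34.8 per degree of freedom, so none were counted as duplicates. Named taxa were the 3 orders, their genus labels, the 5 features of each order with the highest mean stool share, up to 3 features with the highest and 3 with the lowest change among any past the threshold (none in the exposure and time tests), and per order the 3 genus labels with the highest stool correlation. Members and lists were chosen with earlier results of these data known. PCR reads carry no molecular identifiers, so that intervals and floors reflect counting error alone. No feature sequence was printed. Single features were not tested between sites. Alternatives covered scaling, tool, filters, features without lineage, Helicobacter counts, libraries with a later submission number and single libraries.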

Additional observations from a re-analysis of the deposited data

Results flagged for a closer look

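Of 30 groups examined (3 orders in 10 groups of 6 libraries), 15 had a highest library that stood apart from the other 5, by a gap to the next library above Dixon's 95% critical share of the group's range. Chance alone would flag about 1 in 20 groups of normally spread values, and shares have a long upper tail. No group had a lowest library that stood apart. The ranges below are 95% Wilson intervals.

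Most were in tissue and swabs. vadinBB60 stood at 3.57% (3.47% to 3.67%) in PET colon library 2, with the next at 0.903%, and at 6.17% in control colon library 2, with the next at 0.990%. The first was spread over 26 features and the second was almost all 1 feature. It stood at 0.470% (0.384% to 0.575%) in PET lung library 5 and at 0.622% (0.5065% to 0.764%) in control lung library 6, on 93 and 90 counts. It stood at 0.933% (0.8835% to 0.986%) in PET oral swab library 5, where UCG-014 also stood apart at 0.493% (0.457% to 0.532%).

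UCG-014 stood at 5.54% (5.46% to 5.62%) in control day 28 stool library 6, at 1.69% (1.58% to 1.80%) in PET colon library 5 and at 3.38% in PET lung library 2, with the next libraries at 2.60%, 0.285% and 0.238%. Christensenellales stood apart in the same PET colon library 5, at 0.835% (0.763% to 0.914%), and in control colon library 2, at 0.122% (0.107% to 0.140%). It stood at 5.83% (5.63% to 6.03%) in PET lung library 4 and at 0.248% (0.233% to 0.264%) in PET oral swab library 2. In stool it stood at 0.0284% (0.0254% to 0.0318%) in PET week 1 library 6 and at 0.0120% (0.00950% to 0.0151%) in control day 28 library 1.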

How the results depend on the processing

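Every log2 value here is from order counts unless the R-7 group is named, and the cause of each change was not tested. No exposure or time call was made for any of the 3 orders under any alternative, nor with 1 library at a time left out. Signs of small exposure differences did change. For vadinBB60 in day 28 stool the log2 became -0.34 with TMMwsp, -0.28 with library totals, -0.089 with counts required in more libraries, -0.25 as a difference of mean log shares (exact permutation), -0.013 with no filter, -0.16 with features of no lineage kept and -0.15 without later-numbered libraries. For Christensenellales there it became -0.12 with TMMwsp, -0.15 with library totals, -0.072 with no filter, -0.0048 with features of no lineage and -0.57 without later-numbered libraries. In colon vadinBB60 became 0.68 with counts in more libraries, 0.019 by permutation and 0.28 without Helicobacter. In lung vadinBB60 became 0.45 by permutation and 2.03 without later-numbered libraries, and Christensenellales -0.035 by permutation. In oral swabs Christensenellales became 0.29 and the R-7 group 0.23 with library totals, UCG-014 -0.0043 with counts in more libraries and -0.17 by permutation, and vadinBB60 -0.024 by permutation. At week 1 DESeq2 gave -0.023 for UCG-014 and -0.097 for vadinBB60. Over time, UCG-014 in PET became -0.088 without later-numbered libraries and the R-7 group in control -0.38 by DESeq2, while lung against colon for UCG-014 became 0.29 with library totals. With 1 library left out, exposure log2 ran from -1.35 to 0.78 for vadinBB60 in colon, from -1.41 to 1.13 for Christensenellales, -2.92 to 0.28 for UCG-014 and -2.02 to 1.20 for vadinBB60 in lung, from -0.078 to 0.26 for UCG-014 and -0.091 to 0.37 for vadinBB60 in oral swabs, from -0.31 to 0.98 for Christensenellales and -0.47 to 0.19 for vadinBB60 in day 28 stool, and from -0.018 to 0.26 for vadinBB60 in week 1 stool. Time log2 ran from -1.63 to 0.43 for Christensenellales and -0.088 to 0.84 for UCG-014 in PET, and from -0.022 to 1.07 for Christensenellales in control.

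With the low count filter, edgeR called 0 member features. For exposure in stool, DESeq2 called 9 at day 28 and 3 at week 1, and edgeR with no filter called 8 and 1. For time, DESeq2 called 17 in PET, 14 in control and 27 for the difference between arms. There edgeR with no filter called 4 in control and 3 for the difference between arms. With no filter the calls were 8 of 280 members (1.54% of all features), 1 of 355 (0.606%), and 4 (0.530%) and 3 (0.412%) of 455. The share of lung UCG-014 counts in features also found in stool, 8.30%, ran from 0.729% to 49.7% with 1 lung library left out, a choice made after seeing the data. DESeq2 called 1 genus label for time in PET. Of the 4 genus labels, colon against stool gave 1 call, but 3 by DESeq2 and with library totals, 2 with TMMwsp, in PET libraries only, without Helicobacter and without later-numbered libraries, and 0 in control libraries only. Lung against colon gave 2, but 1 in either arm alone and with TMMwsp, and oral swab against stool gave 2, but 1 in PET libraries only. Of the 3 orders, PET libraries alone gave 1 call in colon against stool, in oral swab against stool and in lung against colon, and control libraries alone gave 1 in lung against colon. No paired analysis was possible because replicate numbers follow the order of submission and tie no library to an animal. vadinBB60 in lung rested on 427 counts and the R-7 group in day 28 stool on 72.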
